A study of Phaseolus vulgaris with 12 samples.

Results

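Common bean (Phaseolus vulgaris) true leaves from varieties 093 and 120 were compared for how their transcript levels changed under cold. The submitters' design text describes variety 093 as sensitive to cold and variety 120 as tolerant of it. The quantity described here is the difference of cold responses, which is the change of log2(FPKM + 1) from control to cold in 120 minus the same change in 093. FPKM counts fragments relative to transcript length and to the mapped fragments of the library. The difference was computed for the 14716 of 22542 loci (65.3%) that reached 1 FPKM in at least 3 of the 12 libraries. There were 3 libraries each of 093 control, 093 cold, 120 control and 120 cold. Plants of both cold groups spent 3 days in an incubator at 4 °C, controls stayed on the culture rack, and all had 12 h of light a day, so cold and place cannot be told apart. Each variety had 3 pots in each treatment with 4 seeds in a pot, and no source used here ties a library to a pot or plant. P-values therefore reflect only how far these libraries lie apart, and that spread may be technical. The hour at which leaves were taken is not given in the sources used here.

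Cold slows enzymes and stiffens membranes, and leaves react through calcium signals, kinase cascades and transcription factors that alter sugar metabolism, membrane lipids and photosynthesis. Many of the genes involved also follow the circadian clock, so their level depends on the hour of the day. A difference of responses between varieties can arise because their levels already differ without cold, because their levels differ under cold, or through both. For every locus the difference of responses equals the variety difference under cold minus the variety difference without cold, and these components were tested separately.

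FPKM summed to between 313320 and 350100 per library. Within their own group, 093 control library 3 (mean r = 0.948 across loci) and 120 cold library 3 (mean r = 0.945) had the lowest correlations, and those of the other libraries lay between 0.957 and 0.976. The median SD of a locus within a group was 0.0977 on log2(FPKM + 1) in 093 cold and between 0.181 and 0.227 in the other groups. In 093 control library 2, loci without a description took 28.8% of the summed FPKM, against 13.5% to 19.9% in the other libraries. The libraries held the leaf markers: the 24 light-harvesting antenna loci summed to at least 1448 FPKM and the 47 photosystem subunit loci to at least 4272 FPKM in every library, and 0 members of either list were at 0 in all 12. Summed FPKM of the 30 seed storage and cotyledon loci ranged from 207 to 266 in 093 control, 226 to 230 in 093 cold, 323 to 363 in 120 control and 158 to 177 in 120 cold. In bulk leaf RNA, fewer cells of a type and less RNA per cell cannot be told apart.

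Of the 14716 loci, limma called 2886 (19.6%) in the difference of responses, with adjusted p below 0.05 and a log2 difference of 1 or more in size. Without the fold threshold, 4863 passed. The response of 120 was higher than that of 093 for 956 of the called loci (6.5% of loci tested) and lower for 1930 (13.1% of loci tested). With 093 control library 3 and 120 cold library 3 both left out, there were 3447 calls, 1058 higher and 2389 lower. The excess of lower calls was seen with the deposited scaling. The median difference over all loci tested was -0.23, with a median response of 0.43 in 093 and 0.18 in 120. Median-ratio scaling moved the median difference by 0.26 and gave 1424 higher and 1162 lower calls, 55.1% higher, where the deposited values gave 33.1%. Quantile normalization moved it by 0.19 and gave 1276 in each direction. Medians of several gene groups are therefore given below both as measured and relative to that of all loci. Other groups have counts of calls only.

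The called loci were divided by which variety difference was itself called. Control levels alone differed for 770 loci (26.7%), cold levels alone for 1020 (35.3%), both for 131 (4.54%) and neither for 965 (33.4%). Over all loci tested, 10.8% were called between the varieties without cold and 12.6% under cold. A level that is not called different is not thereby shown to be equal. Among the 770 loci with unequal controls, the 95% interval of the cold difference lay within 1 on the log2 scale on either side of 0 for 536 (69.6%), and among the 1020 with unequal cold levels the interval of the control difference did so for 759 (74.4%). Of the 770, 490 had a lower response in 120 and 280 a higher one. Of the 1020, 595 were lower and 425 higher, and of the 965 with neither level called, 764 were lower and 201 higher. These directions by class hold for the deposited scaling and were not counted under the other scalings. The median absolute difference was 1.67 for unequal controls, 1.60 for unequal cold levels, 2.25 for both and 1.17 for neither.

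**Figure D1:**
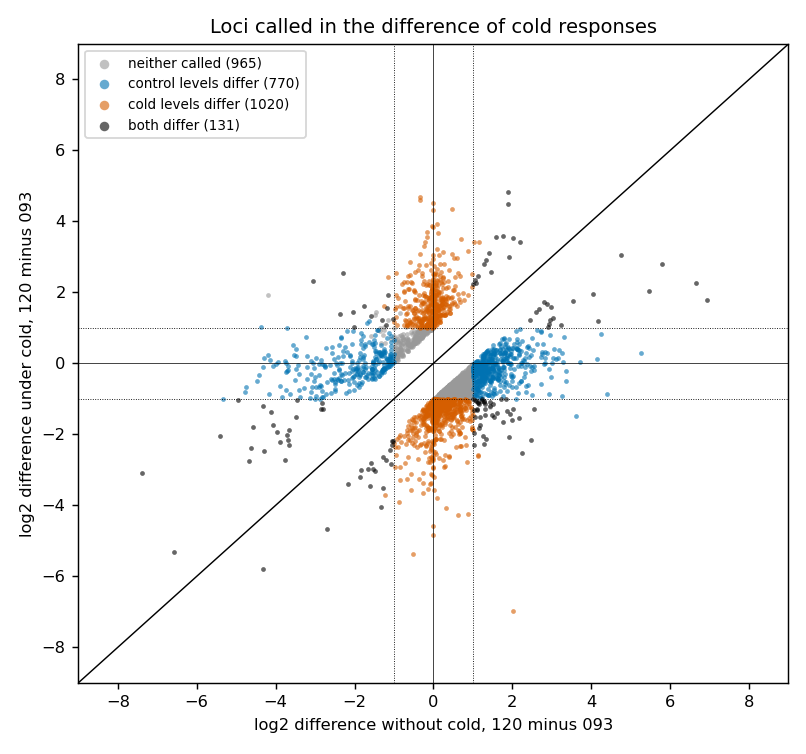
Each point is 1 of the 2886 loci called in the difference of cold responses, with the log2(FPKM + 1) difference 120 minus 093 without cold on the horizontal axis and under cold on the vertical axis. Dotted lines mark 1 and -1, colours give the class, and the distance from the solid diagonal is the difference of responses. The 770 loci with unequal controls lie along the horizontal axis and the 1020 with unequal cold levels along the vertical axis.

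The commonest form of a lower response in 120 was a rise called in 093 alone, with 652 of 1930 loci (33.8%), followed by a fall called in 120 alone, with 516 (26.7%). The commonest form of a higher response was a rise called in 120 alone, with 318 of 956 (33.3%), followed by a fall called in 093 alone, with 242 (25.3%). Called opposite responses were uncommon, with 21 loci that rose in 093 and fell in 120 and 15 that did the reverse. Over all loci tested, rises made up 33% in 093 and 27.8% in 120, and falls 15.2% in 093 and 18.6% in 120. The forms were spread unevenly over the classes. Of the 652 loci that rose in 093 alone, 316 had unequal cold levels and 73 unequal controls, and of the 516 that fell in 120 alone, 75 had unequal cold levels and 227 unequal controls. These divisions use the same values as the classes, so they are a description of them and were not tested.

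Unequal control levels carried the largest differences among the clock genes. The plant clock is a feedback loop whose pseudo-response regulators (PRR) repress morning genes and whose GIGANTEA protein links the clock to flowering. Of 12 clock loci tested, 7 (58.3%) were called, 5 higher and 2 lower, and 6 of the 7 were of the class with unequal controls. The median difference over the 12 was 0.62, which is 0.85 above that of all loci, and the counts by direction were the same under both other scalings. PRR5 (Phvul.009G045000) stood in 093 at 15.5, 25.5 and 17.8 FPKM without cold and 110.5, 101 and 108 FPKM under it. In 120 it stood at 0.145, 0.0463 and 0.441 FPKM without cold and 108, 132 and 73.5 FPKM under it. Thus 120 was far lower than 093 without cold, with no overlap, while under cold the libraries of the varieties overlapped. The difference of responses was 4.00 (SE 0.317, adjusted p = 1.2e-05), and the variety difference was -4.07 without cold and -0.07 (95% interval -0.56 to 0.42) under cold. Both varieties rose.

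The GIGANTEA loci followed the same form. At Phvul.007G083500, 093 had 20.3, 25.0 and 22.1 FPKM without cold and 124, 114 and 126 FPKM under it, and 120 had 0.487, 0.206 and 0.809 FPKM without cold and 139, 136 and 89.8 FPKM under it. The difference of responses was 3.96 (SE 0.264, adjusted p = 3.5e-06), with a cold difference of -0.02 (-0.43 to 0.39). The GIGANTEA locus Phvul.004G088300 had a difference of 2.24, and in 120 control it lay between 0.0228 and 0.0593 FPKM, against 4.33 to 4.67 in 093 control. With a pseudocount of 5 FPKM its difference was 0.77 and not called. PRR7 (Phvul.007G162500) stood at 30.7, 35.3 and 31.2 FPKM in 093 control and at 4.58, 1.004 and 5.85 FPKM in 120 control. In the cold libraries it stood at 43.3, 39.6 and 43.8 FPKM in 093 and 52.6, 50.9 and 37.8 FPKM in 120. It rose in 120 and was not called in 093, and the difference was 3.11 (SE 0.496, adjusted p = 9.3e-04). A locus that joins the names of PRR7 and PRR3 (MSTRG.12776) fell in 093 and rose in 120, with a difference of 4.07. Its library values were 33.6, 38.5 and 22.2 FPKM in 093 control and 2.45, 0.291 and 3.27 FPKM in 120 control.

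Cycling DOF factors, which repress flowering genes and are targets of GIGANTEA in Arabidopsis, went the other way. Cycling DOF factor 3 (Phvul.003G189300) averaged 1.68 ± 0.562 FPKM in 093 control and 8.20 ± 1.81 FPKM in 120 control (SD, n = 3 here and below). Its difference of responses was -2.45, since 120 fell and 093 was not called. Cycling DOF factor 2 (Phvul.008G037000) was the 1 called clock locus with unequal cold levels. It rose in 093, from 0.761, 1.02 and 1.94 to 10.7, 7.17 and 10.8 FPKM, and stood in 120 at 3.72, 2.93 and 3.36 FPKM without and 0.785, 3.79 and 2.09 FPKM with cold. Its difference of -2.79 rested on cold levels, although the control difference of 0.98 was just under the fold threshold. Apart from PRR5 and the joined locus, the clock loci were named after their values were seen. The part of the sampling hour in these control differences was not tested.

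**Figure D2:**
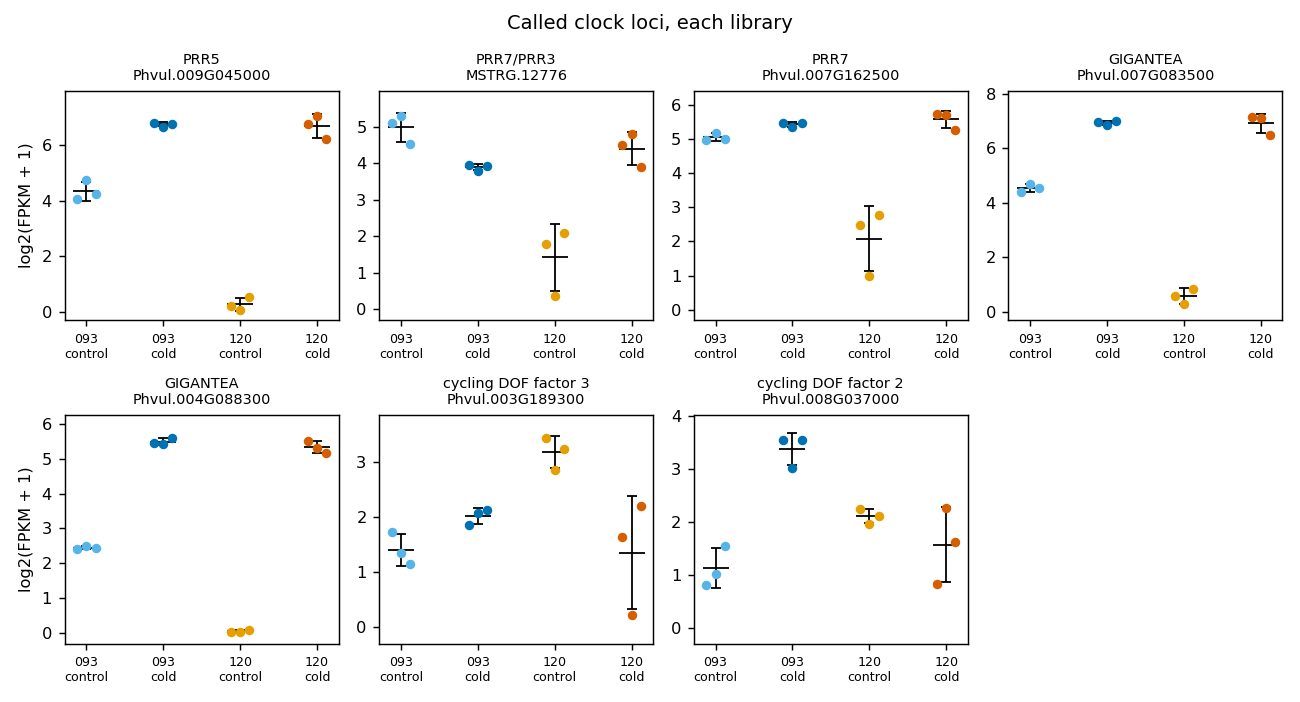
Log2(FPKM + 1) of the 7 called clock loci in each library, grouped as 093 control, 093 cold, 120 control and 120 cold, with a bar at the group mean and error bars of 1 SD (n = 3). In the 5 loci with a higher response in 120, the 120 control libraries lie below the 093 control libraries, and the cold libraries of the varieties lie close together.

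Outside the clock, the largest higher responses with unequal controls were of a similar form. Alpha-crystallin domain 32.1 (Phvul.008G264700), a member of the small heat shock protein family, fell in 093 from 160.4, 181 and 103 to 68.96, 63.8 and 62.9 FPKM. It rose in 120 from 5.98, 4.95 and 8.51 to 89.8, 72.0 and 57.5 FPKM, so the varieties differed without cold and overlapped with it. The difference of responses was 4.45 (SE 0.329, adjusted p = 7.1e-06). A CHY-type zinc finger protein (Phvul.001G056800) fell in 093 from 320.0 ± 169 to 19.2 ± 1.15 FPKM. In 120 it averaged 18.1 ± 10.8 FPKM in control and 23.0 ± 5.36 FPKM under cold, which was not called, for a difference of 4.41. A haloacid dehalogenase-like hydrolase (Phvul.007G056000) rose in 120 from 2.38 ± 1.73 to 51.6 ± 19.6 FPKM. In 093 it averaged 133 ± 70.8 and 99.5 ± 8.62 FPKM, and the difference was 4.35. The largest estimate of this kind, PsbQ-like 2 (Phvul.003G045300) at 5.403, stood at 118, 0.825 and 103 FPKM in 093 control. It was no longer called when any 1 of 11 libraries was left out, with values between 4.35 and 6.03, and only leaving out the low 093 control library 2 kept the call, at 7.38. Lipoxygenase 2 (Phvul.011G056500), an enzyme of jasmonate synthesis, fell in 093 from 27.0, 25.6 and 41.3 to 8.76, 8.28 and 10.5 FPKM and rose in 120 from 1.24, 1.59 and 0.862 to 6.65, 4.79 and 2.34 FPKM. The difference was 2.90. Most called members of its list went the other way with the deposited scaling. Of 38 loci matched by words for jasmonate synthesis and signalling, 17 (44.7%) were called, 5 higher and 12 lower. The lower calls included several loci described as lipoxygenase 1, and whether these act in jasmonate synthesis was not tested. The median of -0.59 lay -0.36 from that of all loci. Median-ratio scaling gave 5 higher and 5 lower, and quantile normalization 5 and 4.

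With the deposited scaling, lower responses with unequal controls were more frequent than higher ones. The pyridoxal phosphate phosphatase-related locus Phvul.010G141200, described by similarity to enzymes that remove phosphate from the vitamin B6 cofactor, stood in 093 at 0.518, 0.266 and 0.460 FPKM without cold and 8.30, 8.31 and 8.63 FPKM under it. Variety 120 had 28.2, 32.3 and 25.5 FPKM without cold and 4.99, 5.20 and 2.66 FPKM under it. It rose in 093 and fell in 120, with a difference of -5.26 (SE 0.273, adjusted p = 5.4e-07), the largest lower response among described loci with unequal controls. A HCO3- transporter family locus (Phvul.005G174400) gave 0.409, 0.353 and 0.576 FPKM in 093 control and 64.5, 46.5 and 53.6 FPKM in 120 control. Its cold libraries gave 12.0, 11.7 and 12.7 FPKM in 093 and 15.6, 15.4 and 14.02 FPKM in 120. The varieties thus moved from levels without overlap to a cold difference of 0.29 (-0.00 to 0.58), and the difference of responses was -4.98 (SE 0.187, adjusted p = 1.1e-07). A transporter with an SPX domain (Phvul.008G069400), a domain that senses phosphate status, fell in both varieties. It fell from 3.42 ± 2.15 to 0.993 ± 0.0512 FPKM in 093, and in 120 it went from 71.7 ± 21.5 to 1.18 ± 0.291 FPKM, with a difference of -4.01. Galacturonosyltransferase 6 (Phvul.007G177400), a pectin-building enzyme, had a difference of -4.16, with 1.53, 1.76 and 23.4 FPKM in 093 cold, and in 120 control with 147, 40.4 and 64.2 FPKM. The third 093 cold library stood far above the other 2, and leaving out single libraries gave -4.73 to -3.10.

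Chloroplast enzymes held several loci of this form. Magnesium chelatase commits porphyrins to chlorophyll, and both loci named here for its subunit chlH had more transcript in 120 control than in 093 control. At Phvul.001G132200, 093 fell from 243, 172 and 269 to 85.4, 78.1 and 87.2 FPKM, and 120 fell from 618, 887 and 748 to 72.9, 65.5 and 84.5 FPKM. The control libraries did not overlap and the cold libraries did, and the difference was -1.90 (SE 0.264, adjusted p = 4.4e-04). The other chlH locus (Phvul.007G252700) fell in 120 and was not called in 093, with a difference of -2.52. Glutamyl-tRNA reductase (Phvul.008G185100), the first committed enzyme of tetrapyrrole synthesis, had a difference of -1.71 with a cold difference of -0.20 (-0.70 to 0.29). Protochlorophyllide oxidoreductase A (Phvul.011G148900), which makes chlorophyllide in light, was the exception with a difference of 3.13. It stood at 40.4, 76.5 and 53.7 FPKM in 093 control, 3.10, 22.0 and 5.65 FPKM in 120 control and between 2.04 and 7.87 FPKM in all cold libraries. Of 20 loci of chlorophyll and tetrapyrrole synthesis, 6 (30%) were called, 1 higher and 5 lower, and 1 and 3 with median-ratio scaling. The median difference was -0.02, which is 0.21 above that of all loci, so the list as a whole did not lie below the rest. The locus Phvul.001G132200 and the reductase were named after their values were seen.

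Among 25 Calvin cycle loci, 9 (36%) were called, 1 higher and 8 lower, with 4 of the class with unequal controls. The median over the 25 of -0.70 lay -0.48 from that of all loci, and the counts were 2 higher and 4 lower with median-ratio scaling. A rubisco activase locus (Phvul.010G016000) averaged 7.84 ± 3.24 FPKM in 093 control and 48.3 ± 21.2 FPKM in 120 control. Under cold it averaged 12.4 ± 0.739 FPKM in 093 and 12.1 ± 8.63 FPKM in 120, with a difference of -2.69. Another called rubisco activase locus (Phvul.001G234300) was far more abundant and had unequal cold levels. It averaged 15067.5 FPKM in 093 control and 15998 FPKM in 120 control. Its cold averages were 2767 FPKM in 093 and 1249 FPKM in 120, with a difference of -1.26. This locus was described after its values were seen and was not run through the alternatives. Transketolase (Phvul.007G006600), which regenerates the carbon dioxide acceptor, fell in both varieties, from 189 ± 19.7 to 68.5 ± 5.36 FPKM in 093, and in 120 it went from 416 ± 128 to 42.2 ± 9.50 FPKM. The difference was -1.80.

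Fatty acid desaturases insert double bonds that keep membranes fluid in the cold. Of 8 tested, 4 (50%) were called, each of them lower, 3 of them with unequal controls. The median of -1.21 lay -0.99 from that of all loci, and 3 were called lower under each other scaling. Fatty acid desaturase 5 (Phvul.010G156200) stood at 1.301, 3.23 and 6.12 FPKM in 093 control and 15.0, 18.3 and 15.0 FPKM in 120 control. Under cold the values were 1.24, 2.44 and 2.70 FPKM in 093 and 0.908, 1.74 and 2.80 FPKM in 120, which overlapped. The difference was -2.23 (SE 0.529, adjusted p = 0.0085), since 120 fell and 093 was not called. A stearoyl-ACP desaturase locus that also joins a cinnamyl alcohol dehydrogenase (MSTRG.4533) was of the class with unequal cold levels. This locus rose in 093 from 4.31, 4.32 and 5.33 to 26.2, 26.2 and 27.3 FPKM and stood in 120 at 5.45, 8.25 and 6.00 FPKM without cold and 10.2, 7.73 and 9.85 FPKM under it, a difference of -1.84. Desaturase 6 (Phvul.003G156600), named after its values were seen, also fell in 120 alone, from 72.1 ± 6.97 to 31.8 ± 11.8 FPKM, with 29.5 ± 9.65 and 37.7 ± 2.54 FPKM in 093. Its difference was -1.60.

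The largest higher response with unequal cold levels was that of a WRKY factor. WRKY factors bind W-box promoter elements, and WRKY33 acts in pathogen defence in Arabidopsis. The WRKY33 locus Phvul.010G062500 stood in 093 at 0.202, 0.0428 and 1.07 FPKM without cold and 0.554, 0.401 and 0.931 FPKM under it. In 120 it stood at 0.125, 0.0463 and 0.0804 FPKM without cold and 53.5, 35.4 and 34.3 FPKM under it. The 120 cold libraries lay above all the others, and their mean was 65.3 times that of 093 cold. The difference was 5.02 (SE 0.362, adjusted p = 5.9e-06), and the control difference was -0.34 (-0.91 to 0.22). Of 52 WRKY loci tested, 13 (25%) were called, 10 higher and 3 lower. Of the 13, 9 had unequal cold levels and 4 had neither level called. The median over the 52 of 0.46 lay 0.68 above that of all loci, and the other scalings gave 17 higher and 1 lower, and 15 higher and 2 lower.

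The WRKY locus Phvul.002G297100 rose in 120 from 0.0899, 0.0458 and 0.531 to 13.5, 9.85 and 21.1 FPKM. In 093 it stood at 0.402, 0.449 and 5.32 FPKM without cold and 1.48, 1.27 and 2.09 FPKM under it, where control library 3 was the high one, and the difference was 3.51. Phvul.009G137500 and WRKY11 (Phvul.009G233900), both named after their values were seen, had differences of 2.10 and 1.77, the latter not called with a pseudocount of 0.1 FPKM, at 1.55. WRKY11 rose in both varieties, to 3.97 ± 0.698 FPKM in 093 and to 21.3 ± 5.93 FPKM in 120.

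MAP kinase kinase 2 (Phvul.009G229800), which relays cold and salt signals in Arabidopsis, rose in 120 from 0.899, 1.27 and 1.04 to 57.4, 59.5 and 33.4 FPKM. In 093 it went from 1.55, 1.0005 and 1.39 to 3.31, 3.23 and 2.99 FPKM, a change of 0.86 that was under the fold threshold. The control libraries overlapped, and the difference of responses was 3.73 (SE 0.289, adjusted p = 1.1e-05). A PLAC8 family locus (Phvul.005G169200) was listed at 0 in all control libraries. Under cold it stood at 1.68, 1.43 and 3.28 FPKM in 093 and 56.7, 55.7 and 24.7 FPKM in 120, a difference of 3.85. An ARF-GAP domain locus (Phvul.004G141200), of a family that acts in vesicle traffic, rose in both varieties, to 10.5, 9.57 and 8.78 FPKM in 093 and 68.6, 103 and 25.1 FPKM in 120. Its difference was 3.58.

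Heat shock transcription factors, a family of regulators of heat shock genes, were called in 1 direction. Of 14 tested, 5 (35.7%) were called, each of them higher, 3 with unequal cold levels and 2 with neither level called. With quantile normalization 5 were called higher and with median-ratio scaling 4. Factor A2 (Phvul.009G078300) rose in 120 from 0.0175, 0.245 and 0.0176 to 3.32, 3.31 and 5.04 FPKM. In 093 it stood at 0.0917, 0.0354 and 0.103 FPKM without cold and 0.236, 0.380 and 0.193 FPKM under it, below every 120 cold library. The difference was 1.91 (SE 0.225, adjusted p = 1.6e-04). Factor A2 passed the filter on low values only through 120 cold, which favours a call. Heat shock factor 4 (Phvul.002G019100) rose in 120, to 6.69, 9.25 and 4.70 FPKM, and stood at 1.83, 0.511 and 1.35 FPKM in 093 cold, a difference of 1.66. These levels are low, and with a pseudocount of 5 FPKM the 2 factors were under the fold threshold, at 0.74 and 0.88. Factor 4 was also not called with a pseudocount of 0.1 FPKM (limma adjusted p = 0.055). The heat shock proteins and chaperones were called at close to the background rate, 30 of 149 (20.1%), 8 higher and 22 lower, and the counts were 11 and 12 with median-ratio scaling and 11 and 14 with quantile normalization. A chaperonin-like RbcX protein (Phvul.006G146300) from this list, of a family that helps assemble rubisco, had a difference of 3.78. It had unequal controls, at 13.2, 22.7 and 9.57 FPKM in 093 and 0.111, 0.835 and 0.136 FPKM in 120, and rose in 120 to 10.7, 12.0 and 7.09 FPKM.

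With the deposited scaling, the larger part of the loci with unequal cold levels had a lower response in 120. MtN3 family proteins, also called SWEET, move sugars out of cells. The MtN3 locus Phvul.002G283800 rose in 093 from 0.301, 0.156 and 0.0772 to 35.3, 32.8 and 38.8 FPKM. Variety 120 had 0.492, 1.06 and 0.882 FPKM without cold and 0.837, 0.379 and 1.68 FPKM under it, which overlap. The difference was -4.88 (SE 0.315, adjusted p = 2.8e-06). Its neighbour in name, Phvul.002G283900, fell in 120 from 115, 153 and 124 to 17.9, 13.8 and 19.0 FPKM and averaged 83.1 ± 17.6 and 65.3 ± 5.55 FPKM in 093, a difference of -2.55. Similar paralogs can share reads, so their separate values are less certain. Of 29 sugar transporters, 11 (37.9%) were called, each of them lower. The other scalings gave 6 lower with 3 higher, and 6 lower with 1 higher.

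Zinc-finger protein 2 (Phvul.007G044500) rose in 093 from 0, 0 and 2.74 to 38.9, 39.1 and 44.5 FPKM and was listed at 0 in all 120 cold libraries. DNAJ-like 20 (Phvul.006G207600), a co-chaperone, was listed at 0 in the 6 libraries of 120 and in 093 control, and stood at 28.9, 19.2 and 22.2 FPKM in 093 cold. Their differences were -4.86 and -4.59. DNAJ-like 20 passed the filter on low values only through 093 cold, which favours a call. The plastid division locus described as MIND (Phvul.004G106800) had the largest estimate, -5.13, with 17.1, 19.0 and 17.9 FPKM in 093 cold and 0 in all 120 cold libraries. Its controls were uneven, at 10.3, 0 and 0 FPKM in 093 and 6.29, 8.68 and 0 FPKM in 120, and leaving out single libraries gave -6.30 to -4.51. CBL-interacting protein kinase 1 (Phvul.003G121600), which acts with calcium sensors, rose in 093 from 0.494, 0.225 and 0.351 to 11.4, 11.6 and 11.4 FPKM. In 120 it stood between 0.748 and 1.94 FPKM in all 6 libraries, and the difference was -3.03.

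Aquaporins are membrane channels for water, and of 25 tested, 14 (56%) were called, 2 higher and 12 lower. Of the 14, 8 had unequal cold levels, 4 unequal controls, 1 both and 1 neither. Under cold, 120 was called lower than 093 for 9 and higher for 1. The median of -0.95 lay -0.72 from that of all loci, and the counts were 2 higher and 11 lower with median-ratio scaling. The plasma membrane channel PIP2 at Phvul.007G094600 rose in 093 from 28.7, 32.5 and 47.2 to 106, 103 and 104 FPKM. In 120 it stood at 24.3, 35.4 and 21.9 FPKM without cold and 11.4, 11.7 and 25.6 FPKM under it, where cold library 3 was the highest of the cold libraries. The difference was -2.31 (SE 0.408, adjusted p = 0.0017). The PIP2 loci Phvul.004G082600, Phvul.004G082700 and Phvul.004G082894 had differences of -2.10, -2.30 and -1.98. All 3 rose in 093, to 195 ± 8.10, 321 ± 13.1 and 202 ± 9.01 FPKM, and the last 2 also rose in 120, to 166 ± 84.6 and 93.5 ± 47.0 FPKM. In 120 cold, library 3 stood above the other two in each, as in the first with 25.3, 27.8 and 82.1 FPKM. They have adjacent gene numbers and 1 description, so reads may have been split among them. PIP2;4 at Phvul.005G135300 fell in 120, from 259 ± 86.9 to 112 ± 32.1 FPKM, and was not called in 093. PIP2;4 at Phvul.011G079300 fell in both, with a difference of -1.41 that was -0.88 and not called with a pseudocount of 5 FPKM. Apart from Phvul.007G094600 and Phvul.004G082700, these were named after their values were seen.

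Nitrate is reduced by nitrate and nitrite reductase and enters amino acids through glutamine, glutamate and asparagine synthesis. Of 32 loci of nitrate assimilation and amino acid synthesis, 13 (40.6%) were called, 1 higher and 12 lower, 7 of them with unequal cold levels. Under cold, 120 was called lower than 093 for 12 of the 32. The median difference of -0.82 lay -0.59 from that of all loci, and median-ratio scaling gave 2 higher and 8 lower. Nitrate reductase 1 at MSTRG.9448 stood in 093 at 456, 309 and 379.6 FPKM without cold and 481, 453 and 481 FPKM under it. It fell in 120, from 429.6, 364 and 459.7 to 115, 105 and 164 FPKM. Controls overlapped, every 120 cold library lay below every 093 cold library, and the difference was -2.04 (SE 0.273, adjusted p = 3.4e-04). Nitrate reductase 1 at Phvul.009G121000 fell in both, to 28.2, 29.1 and 31.6 FPKM in 093 and to 0.890, 0.982 and 7.57 FPKM in 120, a difference of -2.60.

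Nitrite reductase 1 (Phvul.003G292100) fell in both as well, to 104, 105 and 112 FPKM in 093 and to 6.62, 7.11 and 70.5 FPKM in 120. Here 120 cold library 3 stood near the 093 cold libraries and the other 2 far below them. The difference of -2.96 was no longer called when any 1 of 8 libraries was left out, with values between -2.98 and -2.40, and became -4.02 without 120 cold library 3. Asparagine synthase 1 (MSTRG.9850) was among the most abundant loci named, at 3319.9, 2101 and 3096 FPKM in 093 control and 4719, 4911 and 4931 FPKM in 120 control. It fell to 227, 220.5 and 236 FPKM in 093 and to 28.1, 33.5 and 155 FPKM in 120, again highest in library 3, and the difference was -2.89 (SE 0.693, adjusted p = 0.009). NADH-dependent glutamate synthase 1 (Phvul.001G076400) rose in both, to 60.1 ± 6.18 FPKM in 093 and 21.5 ± 3.56 FPKM in 120. The 1 member with a higher response was the asparagine synthase Phvul.006G069300. It rose in 093 from 95.1 ± 38.4 to 456 ± 18.7 FPKM and in 120 from 3.52 ± 2.63 to 132 ± 24.2 FPKM, so 120 was lower in both conditions. The glutamate synthase, this asparagine synthase and both nitrate reductases were named after their values were seen.

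**Figure D3:**
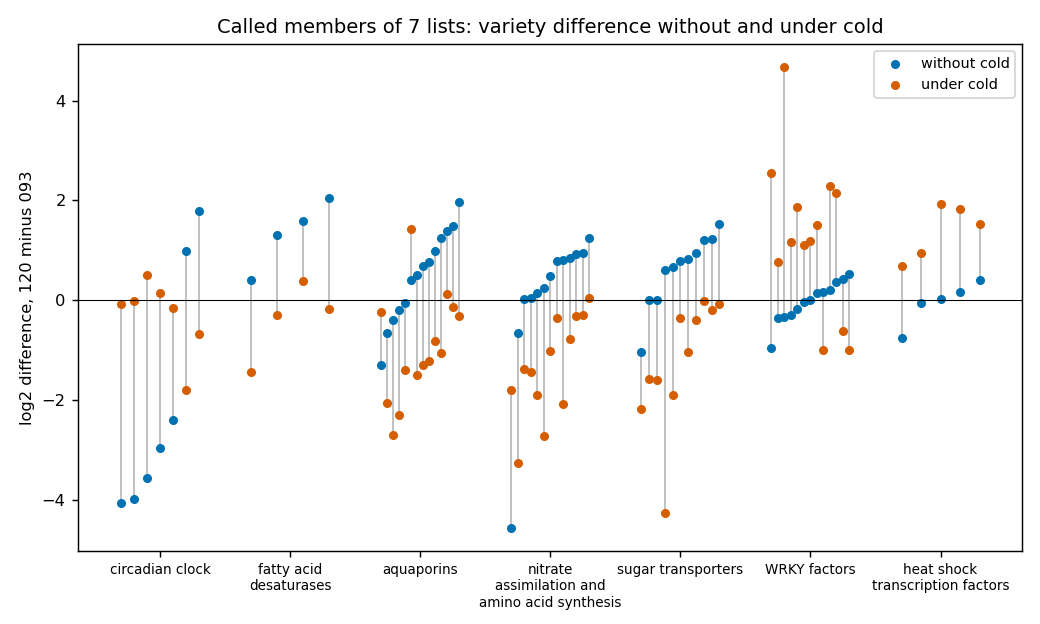
For each called member of 7 gene lists, the log2(FPKM + 1) difference 120 minus 093 is shown without cold (blue) and under cold (orange), joined by a grey line whose length is the difference of responses. Most clock and desaturase members lie apart without cold and draw together under cold, whereas most WRKY and heat shock factors lie nearer 0 without cold and above it under cold.

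Sugar and starch enzymes were called in 1 direction. In sucrose and trehalose metabolism 7 of 23 (30.4%) and in starch synthesis and breakdown 9 of 32 (28.1%) were called, each of them lower. Under median-ratio scaling each list had 1 higher and 4 lower. Sucrose synthase 4 (Phvul.003G127500), which cleaves sucrose, rose in 093 from 3.81, 2.49 and 2.65 to 13.98, 12.8 and 13.9 FPKM. It stood in 120 at 4.95, 2.19 and 1.37 FPKM without cold and 1.76, 2.48 and 2.36 FPKM under it, and the difference was -2.04 (SE 0.393, adjusted p = 0.0028). Galactinol synthase 2 (Phvul.001G223700) makes the galactosyl donor for raffinose, a sugar that accumulates in cold leaves. It was at most 0.0615 FPKM in any control library, and reached 29.4, 30.0 and 29.0 FPKM in 093 cold, against 5.05, 6.97 and 1.09 FPKM in 120 cold, a difference of -2.68.

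Raffinose synthase (Phvul.004G007100), the next enzyme, had unequal levels in both conditions. It rose in 093 from 4.08, 1.71 and 4.39 to 68.3, 64.1 and 69.8 FPKM. Variety 120 had 13.7, 13.7 and 21.0 FPKM without cold and 27.3, 29.6 and 12.3 FPKM under it, so 120 was the higher variety without cold and the lower one with it. The difference was -3.59 (SE 0.467, adjusted p = 2.8e-04). These were the 2 called members of 10 in galactinol and raffinose synthesis (20%). Many beta-amylases release maltose from starch, and the activity of the loci named here was not measured. Beta-amylase 3 (Phvul.006G161200) rose in 093 from 71.8, 76.5 and 102 to 264, 235 and 256 FPKM and stood in 120 at 204, 111 and 253 FPKM without cold and 104, 104 and 99.9 FPKM under it. The chloroplast beta-amylase Phvul.003G226900 fell in 120 from 324, 245 and 379 to 48.6, 53.7 and 45.9 FPKM and stood in 093 at 132, 124 and 140.4 FPKM without cold and 82.4, 114 and 108 FPKM under it. Both crossed in the same sense, 120 above 093 without cold and below it with cold, with differences of -2.39 and -2.24.

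Of the 131 loci with both levels unequal, the variety differences had opposite signs for 55, with 120 higher without and lower with cold for 43 and the reverse for 12. They had the same sign for 76, widening under cold for 34 and narrowing for 42. A GroES-like zinc-binding dehydrogenase (Phvul.011G018000) fell in 093 from 11.3, 20.6 and 12.3 to 1.12, 1.84 and 1.64 FPKM. It rose in 120 from 0.751, 1.03 and 0.794 to 11.1, 16.3 and 8.33 FPKM, so that the varieties changed places with no overlap in either condition. The difference was 5.35 (SE 0.358, adjusted p = 3.5e-06). A pyridoxal phosphate phosphatase-related locus (MSTRG.12168) was its mirror image. It rose in 093 from 1.89, 1.45 and 1.13 to 15.7, 16.5 and 17.4 FPKM and fell in 120 from 15.8, 10.4 and 7.53 to 1.87, 2.03 and 2.16 FPKM, with a difference of -4.79 (SE 0.303, adjusted p = 2.5e-06).

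A divalent ion symporter (Phvul.004G111900) rose in 120 from 0.898, 0.628 and 0.473 to 63.7, 53.0 and 38.4 FPKM and lay between 4.73 and 10.0 FPKM in all 6 libraries of 093. The difference was 4.84. An oxysterol-binding protein-related locus (Phvul.009G236900) and a DnaJ-domain chaperone (Phvul.001G226300) crossed in the same sense, with differences of 3.76 and 3.49. A peroxidase (Phvul.008G249500) crossed in the other sense. It fell in 120 from 81.9, 158 and 115 to 0.662, 0.775 and 2.93 FPKM and stood in 093 at 38.9, 8.60 and 21.8 FPKM without cold and 7.64, 8.04 and 11.9 FPKM under it, a difference of -4.63.

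Other loci kept 1 variety higher throughout. Lipoxygenase 1 (MSTRG.12139) was under 0.5 FPKM in every library of 093, and fell in 120 from 113, 108 and 150.5 to 5.27, 3.61 and 10.3 FPKM, for a difference of -4.38 (SE 0.374, adjusted p = 2.1e-05). An MLP-like protein (Phvul.009G252400), a member of the major latex protein family, rose in 093 from 0.0610, 0.0213 and 0.0395 to 74.0, 85.5 and 84.6 FPKM. In 120 it was already at 71.9, 264 and 107 FPKM without cold and at 422, 278 and 188 FPKM with it. The difference of -5.16 narrowed a control difference of 6.94 to 1.78. For 358 of the 2886 called loci (12.4%), 1 variety stayed under 1 FPKM in all 6 of its libraries, 093 for 158 and 120 for 200. Among all 14716 loci tested, 722 were of this kind, so they were more frequent among the called loci. Among called loci the share was 38.2% where both levels differed and 1.14% where neither did. Of the loci tested, 414 passed the filter on low values through 1 group only, and 267 of them were called, which that way of passing favours. At the filter itself, 162 tested loci had a third-highest FPKM between 1 and 1.1, and 206 loci between 0.9 and 1 were not tested. At the fold threshold, 454 called loci had a difference of 1 to 1.1 in size, and 456 loci that passed the adjusted p had 0.9 to 1.

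**Figure D4:**
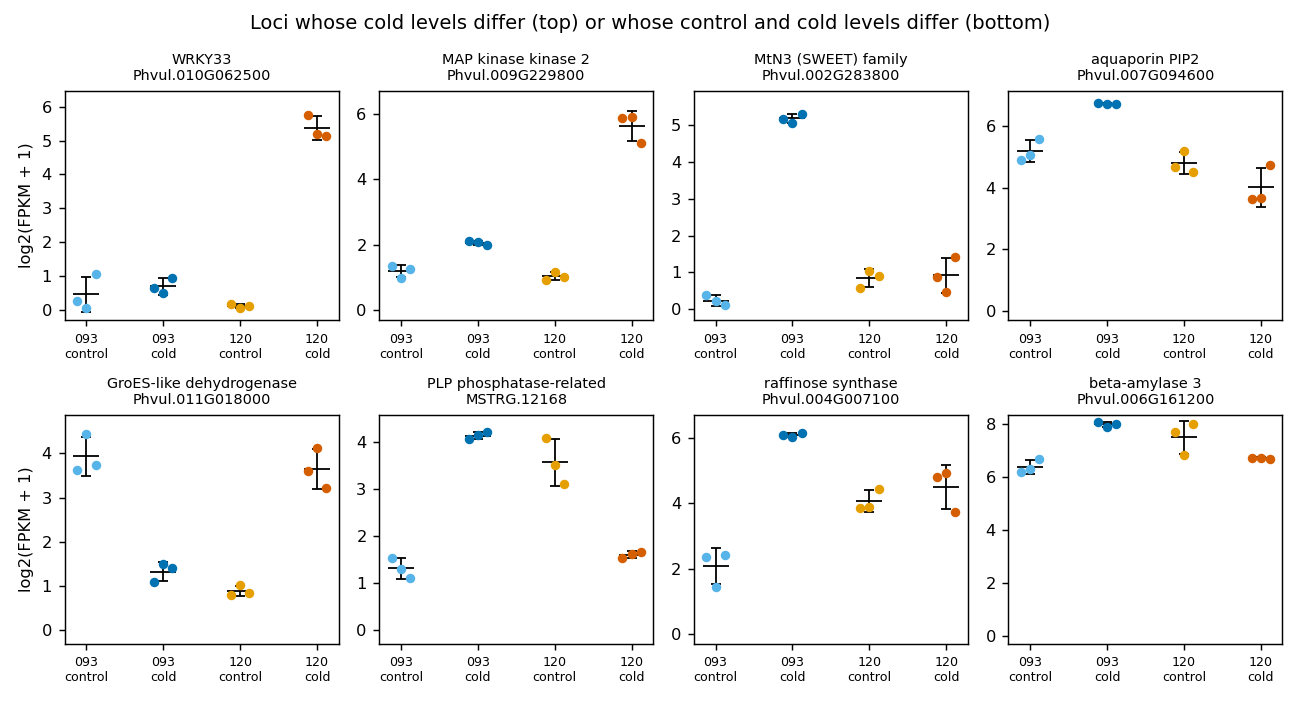
Log2(FPKM + 1) in each library for 4 loci whose cold levels differ (upper row) and 4 whose control and cold levels both differ (lower row), with a bar at the group mean and error bars of 1 SD (n = 3). In the upper row the control libraries of the varieties lie close together, and in the lower row the order of the varieties is reversed between control and cold.

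Where neither level was called, differences were smaller. The variety differences had opposite signs at all 965 loci, which the definition of the class all but fixes. With the same sign, 1 of them would be larger than the called difference itself. For 112 of the 965 loci the intervals of both variety differences lay within 1 on either side of 0. Higher responses were led by glucan synthase-like 5 (Phvul.011G113800), a callose synthase, at 2.85 (SE 0.792, adjusted p = 0.018). It stood in 093 cold at 32.8, 6.50 and 3.80 FPKM, with library 1 far above the others, and in 120 cold at 29.6, 28.9 and 21.7 FPKM. Pyrophosphorylase 4 (Phvul.007G158400) had a difference of 2.28, with 093 control library 3 at 57.3 FPKM against 8.72 and 14.6. It was no longer called when any 1 of 7 libraries was left out, with values between 2.00 and 2.32. Another MLP-like protein, at Phvul.003G109100, had 1.81, with 120 cold library 3 at 213 FPKM against 45.9 and 66.8. It was no longer called when any 1 of 9 libraries was left out. Leaving out single libraries gave 1.17 to 2.27, lowest without 120 cold library 3, and it was 0.86 without that library and 093 control library 3 and 0.98 with library weights, neither of them called. Guanylyl cyclase 1 (Phvul.001G238600) was steadier, at 13.6, 15.6 and 15.7 FPKM in 093 control, 9.50, 8.21 and 8.40 FPKM in 093 cold, 8.38, 6.64 and 6.10 FPKM in 120 control and 18.9, 18.4 and 10.6 FPKM in 120 cold. Its difference was 1.76, and the variety difference was -0.996 without cold and 0.77 under cold.

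The largest lower responses of this class included a sucrose-phosphate synthase (Phvul.005G002600), which makes sucrose, at -2.17. It rose in 093, to 6.40, 6.22 and 6.55 FPKM, and stood in 120 at 3.94, 14.4 and 5.08 FPKM without cold and 3.53, 3.61 and 1.51 FPKM under it, and it was not called at -1.49 when 093 control library 3 and 120 cold library 3 were both left out. A WNK kinase (Phvul.007G185900), a galactose mutarotase-like locus (Phvul.002G295500) and XB3 ortholog 3 (Phvul.004G119800), a ubiquitin ligase, had -1.89, -1.88 and -1.87. The last of these rose in both varieties, from 0.974, 0.606 and 1.65 to 24.2, 24.2 and 23.6 FPKM in 093, and in 120 it went from 2.13, 3.07 and 3.44 to 12.5, 12.6 and 10.6 FPKM.

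Of 51 tested loci matched by auxin words in their descriptions, 24 (47.1%) were called, 3 higher and 21 lower. Many of the called loci are described as auxin response factors, so the list is not one of auxin-induced transcripts alone. Of the 24, 12 had neither level called and 7 unequal cold levels. The 2 loci described next are of the latter class. The median of -0.96 lay -0.73 from that of all loci, with 16 and 14 called lower under the other scalings. Auxin response factor 4 (Phvul.005G136900), a transcription factor of auxin signalling, fell in 120 from 2.77, 3.04 and 1.62 to 0.135, 0.436 and 0.500 FPKM. In 093 it stood at 1.26, 0.919 and 1.20 FPKM without cold and 2.15, 1.69 and 2.10 FPKM under it, and the difference was -1.83. With a pseudocount of 5 FPKM it was -0.67 and not called. Auxin-induced protein 13 (Phvul.001G164900), a repressor of auxin signalling, was at most 0.328 FPKM in any control library. It rose in both, to 16.4, 15.4 and 17.0 FPKM in 093 and 3.34, 4.28 and 1.69 FPKM in 120, with a difference of -2.18. In ethylene synthesis and signalling, 6 of 13 (46.2%) were called, all 6 lower, and 2 and 4 were called lower with median-ratio scaling and quantile normalization. EIN3-binding F box protein 1 (Phvul.009G093200), which removes the ethylene factor EIN3, rose in 093 from 0.843 ± 0.458 to 2.74 ± 0.524 FPKM and was not called in 120, at 2.19 ± 0.551 and 1.15 ± 0.601 FPKM. Its difference of -1.63 was -0.63 with a pseudocount of 5 FPKM and then not called. A second locus of that name (Phvul.003G165500) had -1.51, with 3.22, 4.97 and 3.28 FPKM in 093 cold, and was no longer called when any 1 of 10 libraries was left out (range over all libraries -1.82 to -1.14), with median-ratio scaling or with a pseudocount of 5 FPKM.

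Dehydrins, LEA and other cold-regulated proteins are thought to protect membranes and proteins as cells dry or cool. Of 24 loci whose descriptions matched this list, 4 (16.7%) were called, 2 higher and 2 lower. A matching description does not show that a locus has this protective function. Cold-regulated 413 (Phvul.011G049500), a membrane protein, rose in both, from 7.35, 6.02 and 3.94 to 26.7, 26.4 and 28.6 FPKM in 093, and in 120 it went from 7.00, 4.52 and 5.39 to 82.1, 88.8 and 43.2 FPKM. The controls overlapped, all cold libraries of 120 lay above those of 093, and the difference was 1.305 (SE 0.377, adjusted p = 0.021). It was 1.17 without 120 cold library 1 and 1.12 without 120 cold library 2, and was then not called. A LEA hydroxyproline-rich glycoprotein locus that joins several gene names (MSTRG.972) rose in both, to 47.4, 50.3 and 53.4 FPKM in 093 and 223, 66.4 and 104 FPKM in 120, and was of the class with unequal controls, with 0.722, 1.25 and 6.96 FPKM in 093 control and 0, 0.0126 and 0 in 120 control. A group 1 LEA protein (Phvul.003G230300) was listed at 0 in all controls and stood at 2.97, 2.54 and 2.80 FPKM in 093 cold, against 0.131, 0.299 and 0 FPKM in 120 cold. The differences of the last 2 were 2.83 and -1.73, and the latter was -0.59 and not called with a pseudocount of 5 FPKM. The group 1 LEA locus passed the filter on low values only through 093 cold, which favours a call. All 3 loci whose descriptions matched the CBF/DREB list were under the filter on low values, and members described in other words would be missed. Cold-regulated 413 was named after its values were seen.

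Several groups had a share of called loci below the 19.6% of all loci tested. Of 233 ribosomal protein loci, 7 (3%) were called, while 164 rose in 093 and 154 in 120. The 7 were 1 higher and 6 lower, a direction that turned to 7 higher and 3 lower with median-ratio scaling and 4 and 3 with quantile normalization. Of 28 antioxidant enzymes, 1 (3.57%) was called, and of 70 cell division and DNA replication loci, 5 (7.14%). Light-harvesting antenna proteins had 3 called of 23 (13%), photosystem subunits 7 of 44 (15.9%) and abscisic acid synthesis and signalling 12 of 79 (15.2%). Of 8 seed storage and cotyledon loci tested, 3 (37.5%) were called, all 3 lower, and 1 was called lower with median-ratio scaling. A cupin (Phvul.008G274400) from this list rose in both, to 8.64 ± 0.883 FPKM in 093 and to 1.89 ± 1.02 FPKM in 120, a difference of -1.80 that was -0.99 with a pseudocount of 5 FPKM and then not called. A second cupin (Phvul.007G192800) was under 0.1 FPKM in every control library and rose in both, to 53.0, 52.2 and 55.04 FPKM in 093 and 23.5, 29.0 and 9.67 FPKM in 120. Its difference of -1.38 was no longer called with a pseudocount of 0.1 FPKM, with median-ratio scaling, or without 120 cold library 3, where it was -0.93, or 093 cold library 3. The part of cell composition in the results was not tested.

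**Figure D5:**
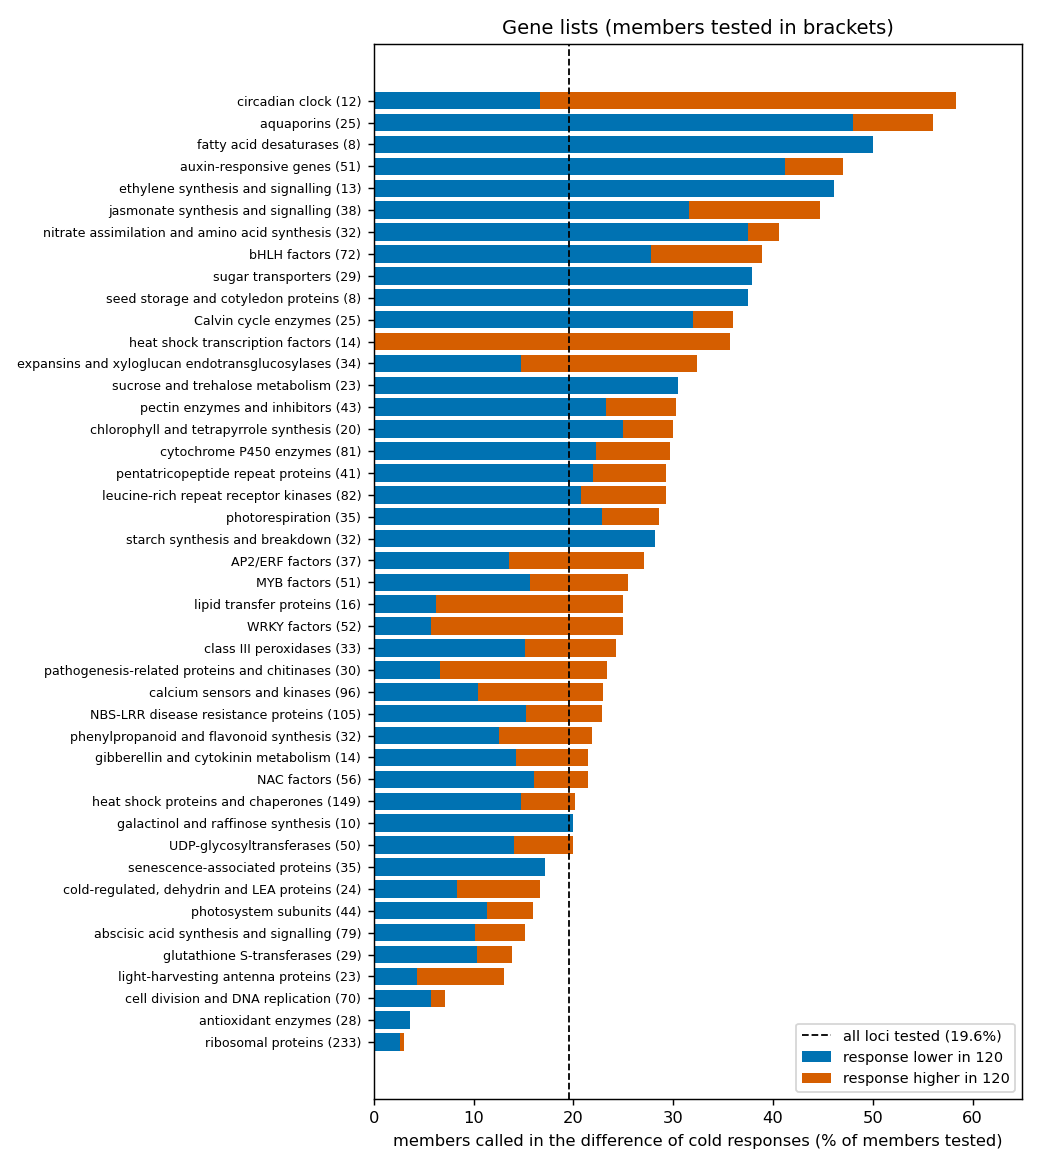
Share of tested members of each gene list that were called in the difference of cold responses, lower in 120 in blue and higher in orange, with the dashed line at the 19.6% of all loci tested. Clock and aquaporin loci have the longest bars and ribosomal proteins the shortest. The lists were written with earlier results of these data known.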

How the data were processed

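RNA of true leaves was sequenced in 12 libraries, as poly(A)-selected, strand-marked libraries on an Illumina NovaSeq per the labels' protocols. The deposited values are FPKM per locus, made by the authors. The submitters' processing notes name cutadapt 1.9, HISAT2 2.0.4 and StringTie 1.3.4d. DESeq2 and edgeR are named there too and were not used here. The genome build is not given in the sources used here, and read totals are unknown, so no counting interval could be given.

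Groups were taken from the labels. Loci reaching 1 FPKM in 3 or more libraries were tested on log2(FPKM + 1), which understates changes of low loci, with limma 3.58.1 in R 4.3.3. The fit had 1 mean per group and a variance trend. Benjamini-Hochberg adjustment was made over all loci within a contrast, and a call needed adjusted p below 0.05 and a log2 difference of 1 or more in size. The procedure was tested on simulated data with independent normal noise, of 1 spread per locus in all libraries. Such data cannot show effects of technical replicates, scaling or single outlying libraries. Replicate numbers were checked for pairing: deviations of same-numbered libraries from their group means correlated between -0.08 and 0.049, so the numbers were not used as a block.

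The members and the gene lists, which match words in locus descriptions, were chosen with earlier results of these data known. Loci were named by rule, the 4 largest differences per class and direction among described loci and the 2 largest per list; not every locus this rule gives is described, and loci outside it are marked in the text. Similar paralogs and loci that join several genes may share reads. Alternatives changed the pseudocount, filter, scaling, variance trend, library weights, fold threshold, replicate block and the libraries used.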

Additional observations from a re-analysis of the deposited data

Results flagged for a closer look

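Each result here was marked because the test of the difference between the varieties' cold responses passed. The values are log2 differences of responses, 120 minus 093, with limma's call behind each, and most of the loci were chosen for the size of that difference. Among clock loci they were 4.00 for Phvul.009G045000, 4.07 for MSTRG.12776, 3.11 for Phvul.007G162500, 3.96 for Phvul.007G083500, 2.24 for Phvul.004G088300, -2.45 for Phvul.003G189300 and -2.79 for Phvul.008G037000.

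Among the other loci with unequal controls, the values were 4.45 for Phvul.008G264700, 4.41 for Phvul.001G056800, 4.35 for Phvul.007G056000, 5.403 for Phvul.003G045300, -5.26 for Phvul.010G141200, -4.98 for Phvul.005G174400 and -4.01 for Phvul.008G069400. They were also -4.16 for Phvul.007G177400, -2.52 for Phvul.007G252700, -1.90 for Phvul.001G132200, -1.71 for Phvul.008G185100, 3.13 for Phvul.011G148900, -2.23 for Phvul.010G156200 and -1.60 for Phvul.003G156600. The remaining ones were -2.69 for Phvul.010G016000, -1.80 for Phvul.007G006600, 2.83 for MSTRG.972 and 2.90 for Phvul.011G056500.

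Among loci with unequal cold levels and a higher response in 120, the values were 5.02 for Phvul.010G062500, 3.73 for Phvul.009G229800, 3.85 for Phvul.005G169200, 3.58 for Phvul.004G141200, 3.51 for Phvul.002G297100, 2.10 for Phvul.009G137500 and 1.77 for Phvul.009G233900. The rest were 1.91 for Phvul.009G078300, 1.66 for Phvul.002G019100 and 1.305 for Phvul.011G049500.

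Where cold levels were unequal and the response lower in 120, the values were -5.13 for Phvul.004G106800, -4.88 for Phvul.002G283800, -4.86 for Phvul.007G044500, -4.59 for Phvul.006G207600, -2.31 for Phvul.007G094600, -2.10 for Phvul.004G082600 and -1.98 for Phvul.004G082894. Next came -2.02 for Phvul.005G135300, -1.41 for Phvul.011G079300, -2.89 for MSTRG.9850, -2.96 for Phvul.003G292100, -2.60 for Phvul.009G121000, -2.04 for MSTRG.9448 and -1.50 for Phvul.001G076400. Then there were -2.55 for Phvul.002G283900, -2.68 for Phvul.001G223700, -2.04 for Phvul.003G127500, -3.03 for Phvul.003G121600, -2.18 for Phvul.001G164900, -1.83 for Phvul.005G136900 and -1.73 for Phvul.003G230300. The last of these was -1.80 for Phvul.008G274400.

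For loci with both levels unequal, the values were -2.30 for Phvul.004G082700, 2.77 for Phvul.006G069300, 5.35 for Phvul.011G018000, 4.84 for Phvul.004G111900, 3.76 for Phvul.009G236900, 3.49 for Phvul.001G226300 and -5.16 for Phvul.009G252400. The last were -4.79 for MSTRG.12168, -4.63 for Phvul.008G249500, -4.38 for MSTRG.12139, -3.59 for Phvul.004G007100, -2.39 for Phvul.006G161200 and -2.24 for Phvul.003G226900.

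For loci with neither level called, the values were -1.63 for Phvul.009G093200, 2.85 for Phvul.011G113800, 2.28 for Phvul.007G158400, 1.81 for Phvul.003G109100, 1.76 for Phvul.001G238600, -2.17 for Phvul.005G002600 and -1.87 for Phvul.004G119800. Further values in this class were -1.89 for Phvul.007G185900 and -1.88 for Phvul.002G295500. Values of 4 further loci were -1.84 for MSTRG.4533, -1.51 for Phvul.003G165500, -1.38 for Phvul.007G192800 and 3.78 for Phvul.006G146300. What lies behind these differences was not tested.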

How the results depend on the processing

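Precision rests on 3 libraries per group, of unknown depth, and low loci depend most on the pseudocount. The count of 2886 called loci became 1294 with a pseudocount of 5 FPKM (496 higher, 798 lower; 392 with unequal controls, 432 with unequal cold levels, 31 with both and 439 with neither). It became 4863 without the fold threshold (1462 higher, 3401 lower; 1457, 2232, 798 and 376 in the same order). With a pseudocount of 0.1 FPKM, 312 loci had both levels unequal. Lower calls numbered 1162 with median-ratio scaling and 1276 with quantile normalization, and the cause was not tested. Of the reported calls, 72.9% and 76.9% were shared with these scalings.

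Leaving out 1 library at a time gave 2556 to 3224 calls, 807 to 1109 higher and 1622 to 2167 lower. By class this gave 656 to 859, 894 to 1291, 115 to 159 and 821 to 1080 loci. Leaving out 093 control library 3 and 120 cold library 3 together, an alternative chosen after seeing the data, gave 3447 calls. With the replicate block there were 2800 calls, 95.8% of the reported ones among them, although the numbers were not found to pair the libraries. Phvul.007G158400 (limma adjusted p = 0.065) and Phvul.003G045300 (0.053) were then not called.

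Of 1908 pairs of a named locus and an alternative, 1828 kept the call and direction, 80 lost the call and 0 reversed, and 66 of 83 loci were called under every alternative run. Most of these loci were chosen for large differences in these same data, which favours keeping the call. Leaving off the fold threshold could not end a call. Of all 2886 reported calls, 43% were shared with a pseudocount of 5 FPKM and 72.9% with median-ratio scaling.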
